A study of Mus musculus with 12 samples.

Results

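The genes described here are the 4 EGR transcription factors, Egr1, Egr2, Egr3 and Egr4, and the NAB corepressors Nab1 and Nab2. They were found by matching the RefSeq accession of each array probe to these 6 symbols, which gave 7 probes of the 55681 on the array: 1 for each gene and 2 for Nab2. Of the 6 genes, 5 were bright enough to be tested, among 15445 named genes tested in all, and Egr3 was not. The RNA came from MEFs, fibroblasts cultured from mouse embryos, in 4 groups of 3 arrays each: wild-type cells and GADD34ΔC/ΔC cells (ΔC below), each either without treatment or exposed to transfected poly(I:C) of the high molecular weight form, at a dose of 2.5 µg/ml over 6 h. GADD34, encoded by Ppp1r15a, directs protein phosphatase 1 to the translation factor eIF2α, and the allele name denotes loss of the C-terminal part. Poly(I:C) is a synthetic double-stranded RNA that stands in for viral RNA, and it was delivered with Lipofectamine, while no group given the lipid alone is listed. How many embryos or cell lines stand behind each genotype is not given in the sources used here, so that p-values measure the spread between these 3 samples per group.

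EGR proteins bind GC-rich DNA through zinc fingers and belong to the immediate-early genes, which are transcribed within minutes of a growth factor, stress or immune signal without new protein synthesis. ERK MAP kinase signalling drives them largely through serum response factor and its ETS partners at CArG boxes and through CREB at cyclic AMP response elements. NAB1 and NAB2 bind EGR proteins and repress their activity, partly through the NuRD chromatin complex, and NAB2 is itself known as an EGR target. In fibroblasts EGR1 is known for its response to serum and wounding, EGR2 elsewhere for its role in myelinating Schwann cells, EGR3 in muscle spindles and lymphocytes and EGR4 in male germ cells.

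Promoters are shown for the 4 members with a window in the reference table, Egr2, Egr4, Nab1 and Nab2. Egr1 and Egr3 have no window there. Whether the marked elements play a part in any change of level was not tested. Of the 5 Egr2 windows, the one printed was chosen because it holds both a CArG box and a CRE half-site. The windows are the 250 bases before an annotated start, from RefSeq on GRCm38.p6, written 5′ to 3′ on the strand of the gene. They are 1 of 5 windows of Egr2 at chr10:67537619-67537868 on the plus strand, and the single windows of Egr4 at chr6:85513590-85513839, Nab1 at chr1:52500449-52500698 and Nab2 at chr10:127666704-127666953, all on the minus strand. Capitals mark, in the order read, a CArG box and a CRE half-site in Egr2, 2 CRE half-sites in Egr4, and in Nab1 an EGR site read on the opposite strand, an EGR site on the gene strand and a variant EGR site.
Egr2: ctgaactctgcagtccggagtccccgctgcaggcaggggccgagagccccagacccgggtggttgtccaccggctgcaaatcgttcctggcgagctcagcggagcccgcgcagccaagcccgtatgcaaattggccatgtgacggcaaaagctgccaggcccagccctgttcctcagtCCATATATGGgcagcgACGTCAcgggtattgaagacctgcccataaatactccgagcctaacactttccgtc
Egr4: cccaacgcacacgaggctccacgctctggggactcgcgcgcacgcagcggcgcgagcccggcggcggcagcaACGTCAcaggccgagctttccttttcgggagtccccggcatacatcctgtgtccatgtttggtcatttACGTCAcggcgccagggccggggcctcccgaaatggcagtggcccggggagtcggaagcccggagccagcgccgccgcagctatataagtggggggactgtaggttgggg
Nab1: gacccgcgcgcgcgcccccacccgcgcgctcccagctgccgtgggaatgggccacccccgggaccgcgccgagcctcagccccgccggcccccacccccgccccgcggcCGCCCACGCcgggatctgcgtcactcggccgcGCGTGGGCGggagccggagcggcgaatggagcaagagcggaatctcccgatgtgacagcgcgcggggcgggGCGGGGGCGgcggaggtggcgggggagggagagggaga
Nab2: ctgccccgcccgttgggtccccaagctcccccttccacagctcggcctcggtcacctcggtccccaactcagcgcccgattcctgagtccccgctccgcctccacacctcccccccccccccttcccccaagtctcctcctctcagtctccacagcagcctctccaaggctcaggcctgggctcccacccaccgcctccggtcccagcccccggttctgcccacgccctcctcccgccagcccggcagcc

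The search covered both strands for the EGR site GCGTGGGCG, its variant GCGGGGGCG, the CRE half-site ACGTCA, the Sp1 box GGGCGG, the CArG box and the kappa B site. Over the 32851 windows of 27025 genes in the same table, the EGR site was present in 0.54% and its variant in 2.57%. The CRE half-site was present in 6.47%, the CArG box in 1.47%, the Sp1 box in 32.74% and the kappa B site in 3.90%. The Egr2 window held its CArG box at -72 to -63 from the start and its CRE half-site at -56 to -51. The other Egr2 windows differed: the first held neither and had 4 Sp1 boxes, the second held a CArG box of other letters, 1 Sp1 box and no CRE half-site, and the last ones overlap the printed one and hold the same pair. In Egr4 the CRE half-sites began at -178 and -110, with a kappa B site between them at -152 to -143 that is left in lower case. In Nab1 the EGR sites lay at -141 to -133 and -109 to -101 and the variant at -38 to -30, in a window of 80.8% G and C that also held 6 Sp1 boxes, some overlapping the EGR letters, and a kappa B site. The Nab2 window held 1 Sp1 box and no match to the other motifs. These matches describe letters only.

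The targeted gene separated the genotypes. Ppp1r15a read 2.62 to 3.37 on the 3 untreated wild-type arrays and 5.79 to 5.84 on the treated ones, on a log2 scale relative to the 75th percentile of each array, and its probe was well above background on 1 of the 6 ΔC arrays, the first treated one. Between 60.4% and 67.3% of probes were well above background on each array. Of the 12 fibroblast markers, 11 were detected, all but Lum, and their summed linear level was 561 to 604 in untreated wild-type cells and 504 to 572 in treated ones. It was lower in ΔC cells, at 247 to 443 untreated and 257 to 423 treated. Col3a1, a fibrillar collagen, was lower in ΔC cells by a log2 difference of -3.64 untreated and -3.56 with poly(I:C), calls lost under 1 and 2 of 27 alternatives. Of the 7 epithelial markers tested, 2 were higher and 1 lower in untreated ΔC cells, beside 10.9% and 10.2% of all genes called. With poly(I:C) 2 were higher, beside 11.9% of all genes. The adhesion gene Epcam was 8.01-fold and 8.73-fold higher when wild-type arrays were set to the lowest signal well above background. These calls were lost under 5 and 8 of 26 alternatives. With normexp correction the Epcam log2 differences were 1.01 and 1.03 (adjusted p of 0.0705 and 0.07 in limma). The keratin gene Krt8 was lower untreated by -1.91 (adjusted p of 0.0118 in limma), and was well above background on 1 of 3 untreated ΔC arrays. The summed epithelial level overlapped between genotypes, at 0.661 to 5.00 and 0.748 to 4.11 in wild-type and 1.89 to 3.81 and 1.55 to 3.31 in ΔC cells, untreated and treated. Detection differed: in each wild-type group 2 of the 7 epithelial markers were well above background on no array, and in each ΔC group 0 were. Epcam and Cdh1 were each well above background on 6 of the 12 arrays. The macrophage markers summed to 19.7 to 23.6 in untreated and 14.3 to 16.5 in treated wild-type cells, and to 10.0 to 13.0 and 10.5 to 13.0 in ΔC cells. Ptprc, Adgre1, Csf1r, Cd14 and Itgam were well above background on all 12 arrays, Fcgr3 on 7, Tyrobp on 1 and Lyz2 on 0. Of the 6 macrophage markers tested, 3 were lower in untreated ΔC cells and 1 with poly(I:C), beside 10.2% and 9.04% of all genes called lower, and 0 were higher. The part that these differences in cell markers play in the genotype results below was not tested, and in bulk RNA fewer cells of a type and less RNA per cell cannot be told apart.

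**Figure D1:**
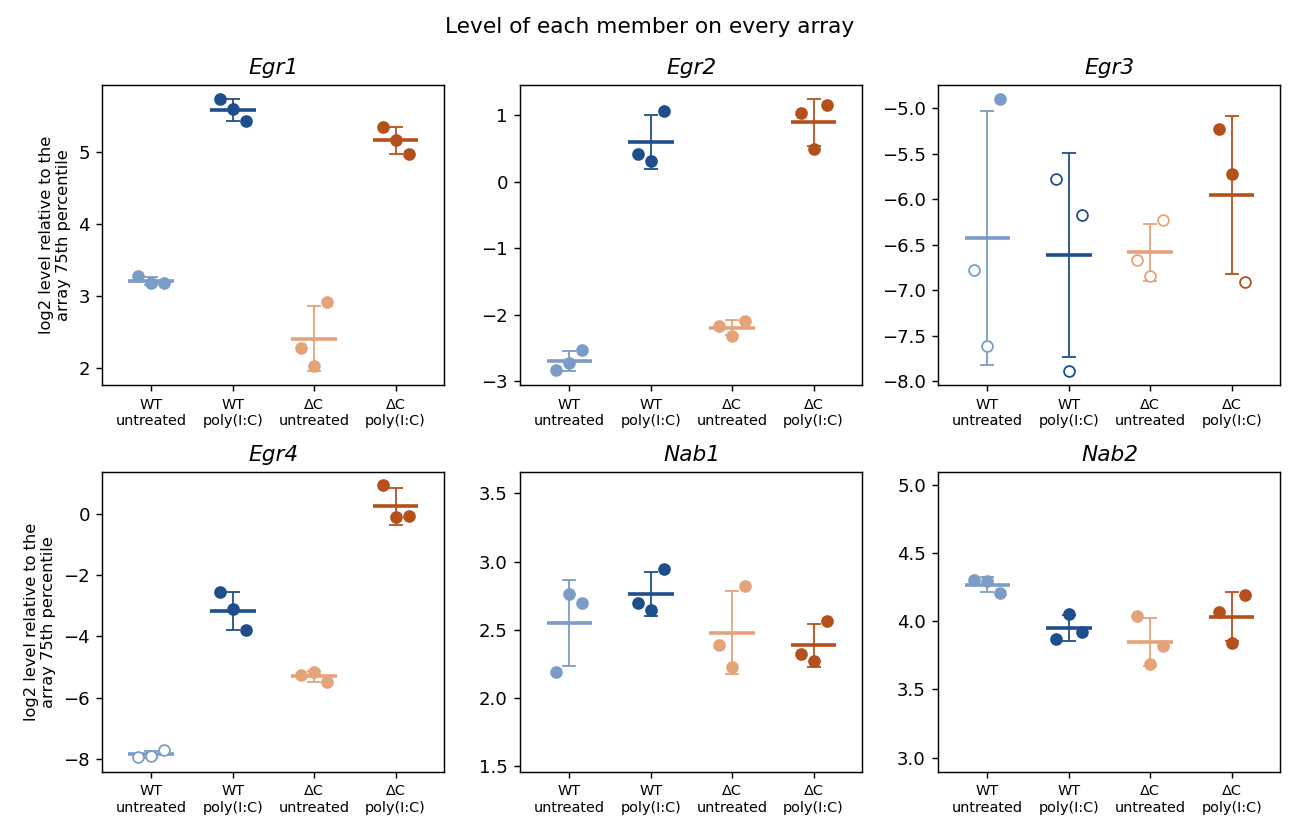
Level of each of the 6 genes on each of the 12 arrays, as log2 relative to the 75th percentile of that array, with bars for the group mean and SD of 3 arrays and open circles where the probe was not well above background. Egr1, Egr2 and Egr4 lie higher with poly(I:C) in both genotypes without overlap, Egr4 lies higher in ΔC than in wild-type cells in both conditions, and the Nab1 and Nab2 axes cover a narrower range.

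Poly(I:C) raised the 3 measurable EGR factors in wild-type cells and in ΔC cells, and neither NAB gene passed the test in either genotype. In wild-type cells 3 of the 5 tested genes rose and 0 fell, against 6.77% of all 15445 genes called in either direction with 5.24% called higher and 1.53% lower. Egr4 was well above background on 0 of 3 untreated wild-type arrays and entered the test only through groups in which it was higher. Its place in the wild-type count follows in part from that filter. In ΔC cells 3 of 5 rose and 0 fell, against 1.84% called in either direction with 1.82% called higher and 0.0194% lower. The median log2 change of the 5 genes was 2.38 in wild-type and 2.75 in ΔC cells, beside -0.14 and -0.05 over all genes tested. Changes were called at an adjusted p under 0.05 in limma, with Benjamini-Hochberg adjustment over all genes tested. All shares of genes called refer to this threshold. Counts at an unadjusted p under 0.05, where given below, have no share of all genes to set them against.

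Egr1, the EGR family member best known as a serum-response gene, was read at a level of 3.27, 3.18 and 3.18 in untreated wild-type cells, arrays 1 to 3, and 5.73, 5.60 and 5.43 with poly(I:C). In ΔC cells it read 2.28, 2.03 and 2.91 untreated and 5.35, 5.16 and 4.97 treated. Every treated array exceeded every untreated array of either genotype. The wild-type rise was 2.38 ± 0.21 on the log2 scale (SE, n = 3 against 3), or 5.20-fold, with an adjusted p of 9.95e-05 in limma. The ΔC rise was 2.75 ± 0.21, or 6.73-fold, with an adjusted p of 8.82e-05 in limma. Within the 1 slide and the 1 scan day that held both conditions, the wild-type rise was 2.42 and 2.49 and the ΔC rise 3.07 and 3.19. Here and below, a slide value is the difference of a same-numbered pair of arrays, and a scan-day value rests on 3 arrays. From lowest to highest, the group levels ran from untreated ΔC and untreated wild type to treated ΔC and treated wild type.

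Egr2, also called Krox20, lay below the array 75th percentile in untreated cells, at -2.84, -2.73 and -2.53 in wild type and -2.17, -2.32 and -2.10 in ΔC. After treatment its level was 0.43, 0.31 and 1.06 in wild-type cells and 1.04, 0.50 and 1.16 in ΔC cells. The treated arrays of the genotypes overlapped, while all of them lay above all untreated arrays. The wild-type rise was 3.30 ± 0.22 (SE), or 9.85-fold, with an adjusted p of 1.98e-05 in limma. The ΔC rise was 3.097 ± 0.22, or 8.55-fold, with an adjusted p of 7.66e-05 in limma. Within the shared slide the rise was 3.04 in wild-type and 3.21 in ΔC cells, and within the shared scan day 3.095 and 3.29. The Schwann cell markers, listed because Egr2 acts in that cell type, summed to 5.09 to 5.75 and 5.26 to 6.19 in wild-type and 4.85 to 5.56 and 4.83 to 5.75 in ΔC cells, untreated and treated, and limma called 0 of the 6 tested in either response (0 at an unadjusted p under 0.05).

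Egr4, known for its role in male germ cells, was not detected in untreated wild-type cells. On the untreated wild-type arrays it read -7.94, -7.92 and -7.72 and was well above background on 0 of 3. Treated, it read -2.57, -3.11 and -3.80 there. In ΔC cells it read -5.26, -5.17 and -5.50 untreated, well above background on all 3 arrays, and 0.94, -0.11 and -0.08 treated. The 4 groups did not overlap, and their order was untreated wild type, untreated ΔC, treated wild type, treated ΔC. The wild-type rise was 6.93-fold when untreated arrays were set to the lowest signal that was well above background. This is an approximate bound, because spots not flagged as well above background can read higher than that signal. The fitted log2 change was 4.70 ± 0.33 (SE), with an adjusted p of 2.55e-05 in limma. The ΔC rise was 5.56 ± 0.33 (SE) on the log2 scale, or 47.2-fold, with an adjusted p of 1.79e-05 in limma. Within the shared slide the fitted rise was 4.82 in wild-type and 6.20 in ΔC cells, and within the shared scan day 5.09 and 6.15. The size depended on the background correction: with normexp correction and an offset of 50, the fitted rise was 1.08 in wild-type and 3.46 in ΔC cells, both still called.

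Egr3 stayed near the background of the array. Its level was -6.78, -7.62 and -4.90 in untreated and -5.78, -7.89 and -6.17 in treated wild-type cells, and -6.67, -6.84 and -6.23 in untreated and -5.23, -5.72 and -6.91 in treated ΔC cells. It was well above background on 3 of the 12 arrays: the third untreated wild-type array and the first and second treated ΔC arrays. The groups overlapped. When the filter on dim probes was dropped, the fitted log2 change was -0.18 ± 0.74 (SE) in wild-type and 0.63 ± 0.74 in ΔC cells, with adjusted p values of 0.961 and 0.795 in limma.

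Nab1 lay within a narrow band on all 12 arrays. It read 2.19, 2.77 and 2.70 in untreated and 2.70, 2.65 and 2.94 in treated wild-type cells, and 2.39, 2.23 and 2.82 in untreated and 2.32, 2.27 and 2.57 in treated ΔC cells. The treated and untreated arrays overlapped in both genotypes. The log2 difference was 0.21 in wild-type cells, with a 95% interval of -0.22 to 0.65 and an adjusted p of 0.507 in limma, and -0.10 in ΔC cells, with an interval of -0.53 to 0.34 and an adjusted p of 0.896.

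For Nab2, the other corepressor, the brighter of 2 probes was tested. It read 4.30, 4.30 and 4.20 in untreated and 3.87, 4.06 and 3.92 in treated wild-type cells, and 4.04, 3.69 and 3.82 in untreated and 4.07, 3.84 and 4.19 in treated ΔC cells. In wild-type cells the treated arrays lay below the untreated ones without overlap, by a log2 difference of -0.32 ± 0.13 (SE; 95% interval -0.61 to -0.03) that did not pass the test, with an adjusted p of 0.154 in limma. In ΔC cells the groups overlapped, with a difference of 0.19 (95% interval -0.10 to 0.47) and an adjusted p of 0.652 in limma. The dimmer Nab2 probe read -2.22 to -1.49 in untreated and -2.39 to -1.86 in treated wild-type cells, and -2.45 to -2.22 in untreated and -2.54 to -1.55 in treated ΔC cells.

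Genotype differences were found for 3 of the 5 genes without treatment and for 1 with poly(I:C). Untreated, Egr4 was higher in ΔC cells and Egr1 and Nab2 were lower, against 21.2% of all genes called in either direction, 10.9% higher and 10.2% lower. With poly(I:C) only Egr4, of the 5, was called, higher in ΔC cells, against 20.9% of all genes in either direction, 11.9% higher and 9.04% lower. These comparisons share their samples with the responses above. Egr4 was part of the untreated comparison only because it was well above background in groups other than untreated wild type.

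Egr4 was higher in ΔC cells in each of the 3 same-numbered pairs with poly(I:C), by 3.50, 3.00 and 3.72. The difference was 3.41 ± 0.33 (SE) on the log2 scale, or 10.6-fold, with an adjusted p of 0.000109 in limma. Within the shared slide it was 3.50, the first of these pairs again, and within the shared scan day 3.78. With normexp correction the difference was 2.50, still called, and in the authors' table with its mismatched column it was 1.27 with an adjusted p of 0.587. Untreated, Egr4 was 1.56-fold higher in ΔC cells by the same approximate bound, with a fitted log2 difference of 2.55 ± 0.33 (SE) and an adjusted p of 0.000591 in limma. The same value was 2.76 within the shared slide and 2.71 within the shared scan day. This untreated difference rests on signals near background: with normexp correction it was 0.115 with an adjusted p of 0.749.

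Egr1 was lower in untreated ΔC cells by a log2 difference of -0.80 ± 0.21 (SE), or 1.74-fold, with an adjusted p of 0.0212 in limma. The groups did not overlap, and the same-numbered differences were -0.99, -1.14 and -0.26. Within the shared slide the difference was -1.14, the second of these pairs again, and within the shared scan day -1.02. The call was lost under 9 of 27 alternatives, among them leaving out the first or second untreated array of wild type (adjusted p of 0.067 and 0.0504) or of ΔC (0.081 and 0.0832). With poly(I:C) the ΔC arrays again lay below the wild-type ones without overlap, by -0.43 ± 0.21 (SE; 95% interval -0.88 to 0.03), but the adjusted p was 0.172 in limma. Without the 4 arrays numbered 3 this difference was -0.41 with an adjusted p of 0.0490.

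Egr2 was higher in untreated ΔC cells on every array, by 0.50 ± 0.22 on the log2 scale (SE; 95% interval 0.01 to 1.00), with an adjusted p of 0.138 in limma. A fit that blocked on the replicate number gave this difference an adjusted p of 0.0465. The treated groups overlapped, and their difference was 0.30 (95% interval -0.20 to 0.79) with an adjusted p of 0.383.

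The NAB genes differed little between genotypes. Nab2 was lower in untreated ΔC cells by -0.42 ± 0.13 (SE) on the log2 scale, or 1.34-fold, with an adjusted p of 0.0439 in limma, a call that was lost under 21 of 27 alternatives. Within the shared slide this difference was -0.61, and on the dimmer Nab2 probe it was -0.56 with an adjusted p of 0.165. Between treated groups the Nab2 difference was 0.09 (95% interval -0.20 to 0.37). Nab1 differed by -0.07 untreated (95% interval -0.51 to 0.37), and with poly(I:C) by -0.38 (95% interval -0.81 to 0.06), where the groups did not overlap and the adjusted p was 0.208 in limma. The same-numbered Nab1 differences with poly(I:C) were -0.37, -0.38 and -0.38.

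**Figure D2:**
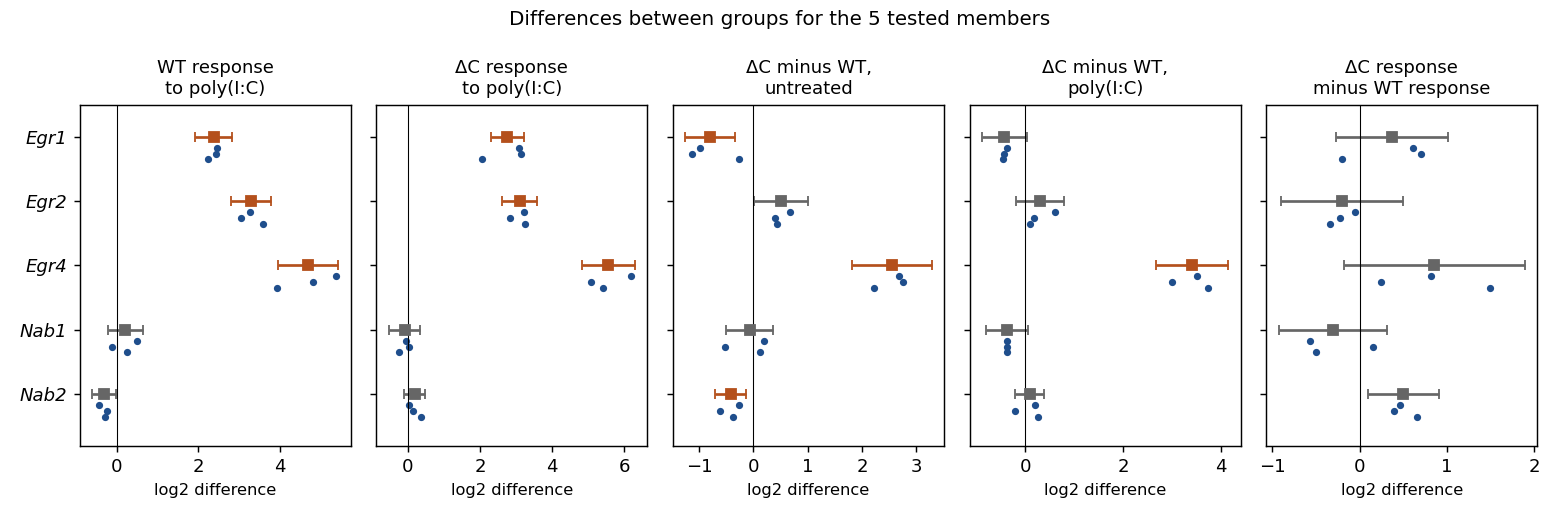
Log2 differences for the 5 tested genes in the 5 comparisons, one panel each, with squares for the fitted difference, bars for its 95% interval and dots for the differences of the 3 same-numbered pairs; orange marks an adjusted p under 0.05 in limma, and the horizontal scales differ between panels. The Egr4 genotype difference with poly(I:C), 3.41, and the rises of Egr1, Egr2 and Egr4 lie clear of 0, and none of the differences between the responses is called; the Egr4 values that use untreated wild-type cells rest on signals below background.

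Whether the response itself differed between genotypes was tested directly, and 0 of the 5 genes passed, against 0.0194% of all genes called, 0.00647% with the larger and 0.0129% with the smaller response in ΔC cells. At an unadjusted p under 0.05, 1 of the 5 did, Nab2, with a difference of 0.50 ± 0.18 (SE), an unadjusted p of 0.0202 and an adjusted p of 0.721 in limma. Its same-numbered responses were -0.43, -0.24 and -0.28 in wild-type and 0.03, 0.15 and 0.38 in ΔC cells. For Egr1 the difference was 0.37 (95% interval -0.27 to 1.02). For Egr2 the difference was -0.20 (95% interval -0.90 to 0.50), and for Nab1 -0.31 (95% interval -0.93 to 0.31). The adjusted p of each of these 3 was 0.987 in limma. For Egr4 the wild-type rise is known only as an approximate bound, because untreated wild-type cells were not above background, so that the size of its difference between the responses was not measured. The fit gave it 0.86 (adjusted p of 0.987), and 2.38 with normexp correction (adjusted p of 0.0307).

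Across the 12 arrays the levels of Egr1 and Egr2 had a Pearson r of 0.908, those of Egr2 and Egr4 of 0.895 and those of Egr1 and Egr4 of 0.716, all describing 4 groups rather than independent samples. Nab1 and Nab2 had r of 0.238 and -0.022 with Egr1. Among 13062 other named genes detected on all arrays, the levels most like Egr1 were those of the chemokine Ccl2 (r of 0.990), the AP-1 subunit Junb (0.986) and Tcim (0.986). These 3 rose in both genotypes, Ccl2 by 3.83 and 3.95 and Junb by 1.92 and 2.45. The genes nearest to each member were picked by their levels on these same arrays. Their shared changes follow from that choice and are no separate result. Nearest to Egr2 were the linker histone gene H1f2 (0.967), the stress-response factor Atf3 (0.959) and the NF-kappa B inhibitor gene Nfkbie (0.958). Nearest to Egr4 were the mitochondrial carrier gene Slc25a25 (0.977), the transcription factor Grhl1 (0.972) and the histone gene H2bc22 (0.971). Slc25a25, picked in the same way, rose by 1.21 and 1.40 and was higher in ΔC cells by 0.53 untreated and 0.72 treated. The genes nearest to Nab1 were Zfp984 (0.923), Kdm4c (0.880) and Zfp985 (0.878), and those nearest to Nab2 were Serpina3b (0.880), Tyw1 (0.838) and Hexa (0.825).

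The other immediate-early genes rose widely with poly(I:C). Of 27 tested, 16 rose and 0 fell in wild-type cells, with a median log2 change of 1.40, and 11 rose and 0 fell in ΔC cells, with a median of 1.36, beside 5.24% and 1.82% of all genes called higher. Atf3, a stress-induced transcription factor, had the largest rise of the list in both, 5.61 ± 0.46 (SE, adjusted p of 6.8e-05 in limma) in wild-type and 4.29 ± 0.46 (adjusted p of 0.000693) in ΔC cells. The wild-type count was 10 without the first untreated or the first treated wild-type array. Over all genes those fits called 439 and 372 higher in the wild-type response, against 809 in the main fit. The ΔC count was 7 without the first or second untreated or the first treated ΔC array, and 18 without the third untreated one. Over all genes those fits called 162, 154, 160 and 308 higher in the ΔC response, against 281 in the main fit. Between genotypes 1 of the 27 was higher in ΔC cells and 3 were lower untreated, and 1 was higher and 4 lower with poly(I:C), shares no larger than the 21.2% and 20.9% of all genes called. Klf4, a zinc-finger factor, was the most reduced, by -1.55 untreated (adjusted p of 0.0196 in limma) and -2.38 with poly(I:C) (adjusted p of 0.00234). The untreated call was lost without the first or second untreated array of either genotype (adjusted p of 0.0569 to 0.0726).

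Of the 22 tested genes of the ERK cascade, which signals to the EGR promoters, 1 rose and 1 fell in wild-type cells and 1 rose in ΔC cells, beside 6.77% and 1.84% of all genes called. Map3k8, a kinase that activates MEK downstream of innate immune receptors, rose by 2.50 ± 0.46 (SE, adjusted p of 0.0102 in limma) in wild-type and 2.79 ± 0.46 (adjusted p of 0.0108) in ΔC cells. The first call was lost without the first or second treated wild-type array (adjusted p of 0.0553 and 0.0538). The second was lost without the second untreated ΔC array (0.0549) or without the first or second treated one (0.0614 and 0.0521). Between genotypes 3 were higher and 3 lower in untreated ΔC cells, and 3 higher and 4 lower with poly(I:C), beside 21.2% and 20.9% of all genes called. Araf, a RAF kinase, was lower by -1.32 and -1.19 (adjusted p of 0.00529 and 0.00882 in limma). Of the 11 regulators that act on Egr promoters, 1 rose and 1 fell in wild-type cells, beside 6.77% of all genes called. In ΔC cells limma called 0, beside 1.84% (2 at an unadjusted p under 0.05). Creb1 rose by 0.56, a call lost under 16 of 27 alternatives, and Elk3 fell by -0.76, lost under 8. Between genotypes 0 were higher and 2 lower in untreated ΔC cells, and 0 higher and 1 lower with poly(I:C), beside 21.2% and 20.9%. Elk3 was lower untreated by -0.87 (adjusted p of 0.00281 in limma). Ets2, an ETS factor, was lower in ΔC cells by -1.07 untreated and -1.30 with poly(I:C) (adjusted p of 0.0230 and 0.00970 in limma). The untreated call was lost without the first or second untreated array of either genotype (adjusted p of 0.0631 to 0.0915).

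A minority of the feedback inhibitors of ERK signalling passed the test for a rise. Of 12 tested, 3 were called higher in wild-type cells and 2 in ΔC cells, beside the same shares of all genes called higher, 5.24% and 1.82%. Their medians were 1.20 and 0.80, beside -0.14 and -0.05 over all genes. At an unadjusted p under 0.05 in limma there were 8 in wild-type and 4 in ΔC cells, a looser threshold to which the shares above do not apply. Without the first or second untreated, or the second treated, wild-type array the wild-type count of calls was 0, without the first treated one 1 and without the third untreated one 8. Over all genes those fits called 439, 473, 389, 372 and 1096 higher, in that order, against 809 in the main fit. The ΔC count was 1 in 9 of the 12 fits that left out 1 array. Over all genes the 12 fits called 154 to 345 higher in the ΔC response, against 281 in the main fit. Dusp5, a nuclear ERK phosphatase, rose by 2.15 ± 0.54 (SE) in wild-type cells with an adjusted p of 0.0424 in limma, a call lost under 14 of 27 alternatives. In ΔC cells the Dusp5 change was 1.32 with an adjusted p of 0.417 in limma. Dusp1, a phosphatase of several MAP kinases, rose by 1.49 ± 0.19 (SE) in ΔC cells with an adjusted p of 0.00269 in limma. It was also called in wild-type cells, at 0.95 with an adjusted p of 0.0181. Untreated, Dusp1 was lower in ΔC cells by -0.81 (adjusted p of 0.0155 in limma), a call lost under 5 of 27 alternatives. For Dusp5 and Dusp1 the difference between the responses had an adjusted p of 0.987 in limma. Between genotypes 3 of the 12 were higher and 1 lower in untreated ΔC cells, beside 10.9% and 10.2% of all genes. With poly(I:C) 2 were higher and 0 lower, beside 11.9% and 9.04%. The ERK pathway inhibitor Spry1 was the most raised of the list in ΔC cells, by 4.41 ± 0.73 (SE) untreated and 4.20 ± 0.73 treated, with adjusted p values of 0.00239 and 0.00303 in limma; its probe was well above background on 2 of 3 wild-type arrays in each condition.

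Of the 25 reported EGR target genes tested, 5 rose in wild-type cells, where 5.24% of all genes rose, and 1 rose in ΔC cells, where 1.82% did. The median change of the list was 0.01 and 0.14. The cytokine gene Tnf had the largest rise, by a fitted 4.54 ± 0.41 (SE, adjusted p of 0.000133 in limma) in wild-type and 3.79 ± 0.41 (adjusted p of 0.000792) in ΔC cells, from untreated groups in which it was well above background on 1 of 3 arrays. Without the first or second treated wild-type array the wild-type count was 3, and without the third untreated one it was 8. Over all genes those fits called 372, 389 and 1096 higher, against 809 in the main fit. Between genotypes 1 was higher and 4 lower in untreated ΔC cells, and 2 higher and 3 lower with poly(I:C), beside 21.2% and 20.9% of all genes called. Thbs1, which encodes the matrix protein thrombospondin-1, was lower by -1.66 and -1.61 (adjusted p of 0.0177 and 0.0197 in limma), each call lost under 8 of 27 alternatives, among them leaving out the first or second array of either group compared (0.0599 to 0.0734 untreated and 0.0632 to 0.077 treated). Among the 15 tested genes of the NuRD complex and GC-box factors, 0 passed the limma test for poly(I:C) in either genotype (2 in wild-type and 0 in ΔC cells at an unadjusted p under 0.05). In ΔC cells 4 were lower untreated and 2 with poly(I:C), beside 10.2% and 9.04% of all genes, with the methyl-DNA binding gene Mbd2 lowest, at -0.71 and -0.75 (adjusted p of 0.00813 and 0.00627 in limma). In these 6 lists limma called 0 differences between the responses; at an unadjusted p under 0.05 there were 3 among the reported targets, 1 each in the ERK cascade and the promoter regulators and 0 in the others. With single arrays left out, the genotype counts of these lists moved: untreated and treated, they ran from 2 to 8 and from 2 to 7 for the immediate-early genes, from 4 to 8 and from 3 to 11 for the ERK cascade and from 0 to 7 and from 0 to 6 for the reported targets. Calls over all genes moved too. Untreated, 1014 to 1912 genes were called higher and 762 to 1906 lower in ΔC cells. With poly(I:C) these ranges were 1050 to 2003 and 696 to 1541.

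**Figure D3:**
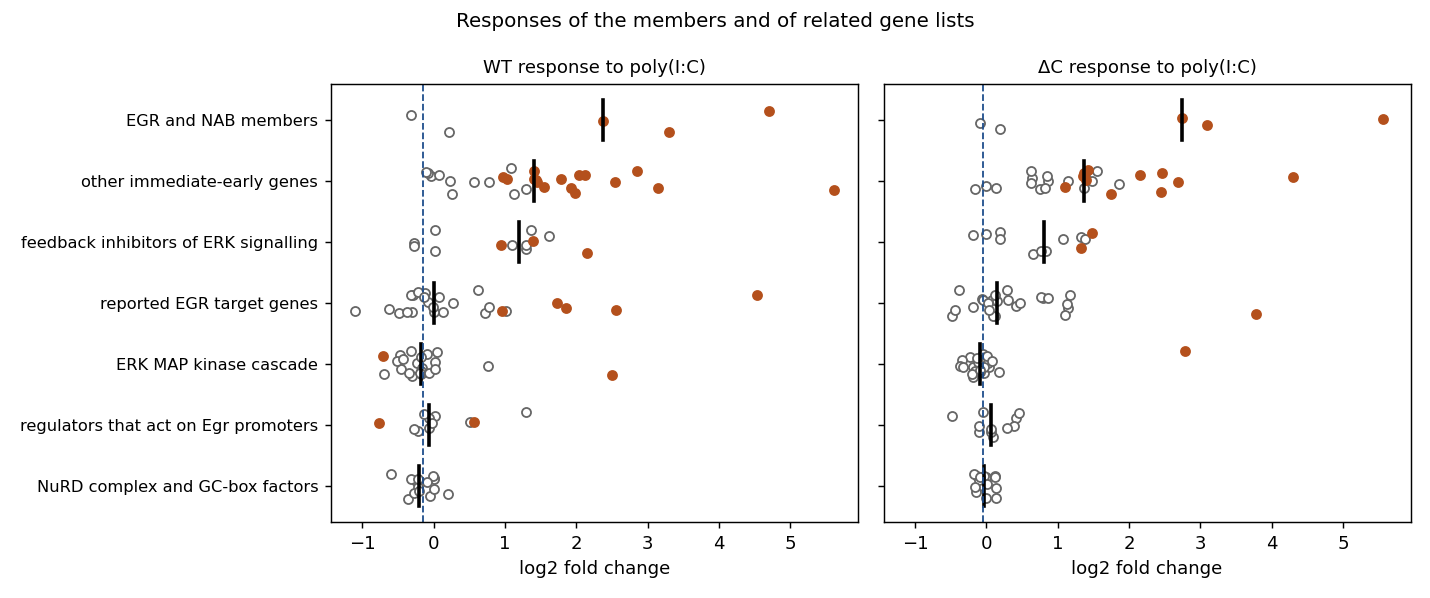
Log2 response to poly(I:C) of each tested gene, by list, in wild-type (left) and ΔC cells (right), with orange points for an adjusted p under 0.05 in limma, a black bar for the list median and a dashed line for the median of all genes tested (-0.14 and -0.05). The immediate-early list centres at 1.40 and 1.36, while the reported EGR target genes centre at 0.01 and 0.14, near the line.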

How the data were processed

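RNA of 12 MEF samples, 3 in each of 4 groups, was measured on Agilent single-colour arrays. Per the file headers, Feature Extraction 10.7.3.1 gave the deposited intensity of each spot, background-subtracted and detrended, not normalized between arrays. A second file deposited by the authors holds log2 values, 1 per probe, with a median of 5.28 in each column. The submitters' processing notes name limma, and its steps are not given in the sources used here.

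From the scanner files, log2 intensity was taken, control and outlier spots were left out, spots of a probe were averaged, and the array's 75th percentile over 55681 probes was subtracted. RefSeq accessions named 27235 probes. A gene was tested if some group had all 3 of its arrays flagged well above background for a probe, and its brightest probe was used (15445 genes; 107 probes with a missing value were left out). limma 3.58.1 in R 4.3.3 fitted 1 mean per group over all 12 arrays, two-sided. The fit was also run on simulated arrays drawn independently of each other, which cannot test the effect of the shared deviations given below. Where a group had no array well above background, folds are bounds that use the lowest well-above-background signal. The number of arrays limits the precision.

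Samples of the same replicate number deviated together (correlations of 0.115 to 0.651 over the compared groups). The numbers, which the labels give, were used for the same-numbered differences and for the replicate block among the alternatives. The main fit holds no pairing term, so its SEs, intervals and adjusted p values leave this pairing out. With the replicate block, limma called 2062 genes higher and 2155 lower in untreated ΔC cells, against 1686 and 1581 in the main fit. Named genes were the 6 members, Ppp1r15a, for each list and comparison the called gene with the largest rise and fall, of which the text gives part, and the 3 genes with the most similar levels. The members and lists were chosen with earlier results of these data known. Alternatives covered scaling, background correction, filters, probes, fit, blocks, the authors' table and left-out arrays. Normexp used the median spot signal, because the files used here give no mean signal column. The authors' table was set against the scanner files, and its column for the first treated ΔC sample did not follow its array (r of 0.949, against at least 0.999 for the other 11).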

Additional observations from a re-analysis of the deposited data

How the results depend on the processing

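Up to 27 alternatives were run for each result, some fewer where a gene left the test. The rises of Egr1 and Egr2 in wild-type cells were called in all 27, at 2.15 to 2.46 and 2.66 to 3.44. The authors' table, with its mismatched column, ended every member call in ΔC cells (0 in the response, 0 untreated and 0 with poly(I:C) between genotypes). It also ended that of the Egr4 rise in wild-type cells (adjusted p of 0.0841 in limma). In the ΔC response that table gave 0 calls over all genes. Without the mismatched column the Egr1, Egr2 and Egr4 calls of the ΔC response returned. Dropping that column and using the dimmer Nab2 probe were alternatives chosen after seeing the data. Of the 3 members called between untreated genotypes, 1 was left with median scaling, normexp, only the groups compared, a slide block or a scan-day block, and 1 to 3 when single arrays were left out. With poly(I:C), 0 members were called between genotypes when probes had to be above background on all 12 arrays, which removed Egr4 from the test, and 2 without the arrays numbered 3. That last fit called 3212 genes higher and 2614 lower, against 1837 and 1396 in the main fit. With normexp 1 member was called for the difference between the responses. With the replicate block 4 members were called between untreated genotypes, Egr2 being added (adjusted p of 0.0465), and no other member call changed. Signs turned for values that were not called. With median scaling Nab1 untreated between genotypes was 0.001 and Nab2 with poly(I:C) -0.057, and without the arrays numbered 3 the latter was -0.007. Leaving out single arrays gave Nab1 untreated between genotypes -0.25 to 0.055, the Nab1 response in ΔC cells -0.22 to 0.075 and the Egr2 difference between the responses -0.348 to 0.028. The Nab1 response in ΔC cells was 0.144 when slide was the block and 0.112 when scan day was. The difference between the responses was 0.191 for Egr2 and 0.106 for Nab1 with either block. In the authors' table Egr2 with poly(I:C) was -0.688, and the difference between the responses was -0.115 for Egr1 and -1.269 for Egr4. The cause of these shifts was not tested. Median scaling moved the median of all genes from -0.05 to -0.19 in the ΔC response, from 0.005 to -0.136 between treated genotypes and from 0.075 to -0.137 for the difference between the responses. The slide block leaves the second treated ΔC array, alone on its slide, without weight. With slide as a block the immediate-early genes called numbered 5 in the wild-type and 1 in the ΔC response. Over all genes 222 and 84 were called higher in that fit, against 809 and 281 in the main fit. Signal over background limits Egr3 and untreated Egr4.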

Other observations

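In the authors' deposited table, the column of the first treated ΔC sample reads lower for the EGR genes than the other treated ΔC columns. Egr1 reads 13.4 there and 14.8 and 14.6 in the others, on the authors' log2 scale. Egr2 reads 7.62 in that column of the authors' deposited table, against 10.1 and 10.73 in the other treated ΔC columns and 7.26 to 7.43 in the untreated ones. Egr4 reads 3.98 in that column of the authors' deposited table, against 9.44 and 9.47 in the others and 3.70 to 4.55 untreated. The scanner file of the same sample gave the highest treated ΔC levels of Egr1 and Egr4, 5.35 and 0.94.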
